A study of Mus musculus with 8 samples.

Results

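Cathepsins are the proteases of lysosomes, endosomes and granules, and the 10 genes described here (Ctsa, Ctsb, Ctsc, Ctsd, Ctse, Ctsg, Ctsh, Ctss, Ctsw and Ctsz) were taken by symbol from a table of mouse spleen mRNA. They account for 12 of 23517 RefSeq transcripts and for 10 of 17738 gene symbols in that table, and all 12 had a mean of at least 0.5 FPKM (sequenced fragments scaled to transcript length and library depth) and were tested among 16608 transcripts. All mice were untreated C57BL/6 males of 8 to 12 weeks, with 4 spleens in the wild-type group and 4 in the TTPΔARE group. Tristetraprolin (TTP, gene Zfp36) binds AU-rich elements in 3′ untranslated regions (3′ UTRs) and promotes mRNA decay. TTPΔARE denotes a Zfp36 allele from whose own 3′ UTR an AU-rich stretch was deleted. The labels do not say whether the mice were homozygous, and the RNA was that of whole spleen, a mixture of many cell types.

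Cathepsins fall into mechanistic classes named for the residue that cuts the peptide bond. Ctsb, Ctsc, Ctsh, Ctss, Ctsw and Ctsz encode cysteine proteases, Ctsd and Ctse aspartic proteases, and Ctsa and Ctsg serine enzymes. In spleen, macrophages degrade engulfed red cells with lysosomal cathepsins, B cells and dendritic cells use cathepsin S to remove the invariant chain from MHC class II, and cytotoxic lymphocytes and granulocytes store proteases in granules. Cathepsin activity is held in check by cystatins, stefins and some serpins.

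Depth, estimated from the steps between low values, was 28.3 to 32.2 M fragments per library. Zfp36 mRNA spanned 36.4 to 44.9 FPKM in the wild-type libraries, and those labelled TTPΔARE lay above, at 46.1 to 57.5 FPKM. Wild-type replicate 3 stood apart in its group for erythroid and early granulocyte mRNAs, and what omitting it did to Ctsb, Ctsd, Ctse and Ctsg is stated for each. In the fit with sample weights, wild-type replicate 1 had the lowest weight, 0.534, against 0.823 to 1.43 for the other libraries. With the erythroid covariate named below, no transcript of the whole table passed, so every call given here was lost under it. That covariate itself differed between the groups, at 2.88 to 4.34 in wild-type and 4.09 to 5.05 in TTPΔARE spleens. Fits with it therefore cannot separate erythroid content from genotype. In that fit the SE of Ctsh grew from 0.0699 to 0.112, while that of Ctse fell from 0.319 to 0.127. In whole tissue, fewer cells of a type and less RNA per cell cannot be told apart.

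Ctsh was lower in TTPΔARE spleen, and for the other 11 cathepsin transcripts no difference passed. Thus 1 of the 12 transcripts passed the test (limma, Benjamini-Hochberg adjusted p under 0.05), against 4.00% of all transcripts tested in either direction and 2.01% in the higher and 1.99% in the lower direction. The groups did not overlap for 2 of the 12, Ctsh and the main Ctsa transcript, against 12.5% of all transcripts tested. At an unadjusted p under 0.05 there were 4 of the 12, against 21.1% of all. These counts rest on few transcripts and were not tested against the background. The median log2 change over the 10 main transcripts, those of the highest mean per gene, was -0.03, beside 0.003 over all transcripts tested. Changes are on the log2(FPKM + 0.5) scale, TTPΔARE minus wild-type, which understates the change of low transcripts.

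**Figure D1:**
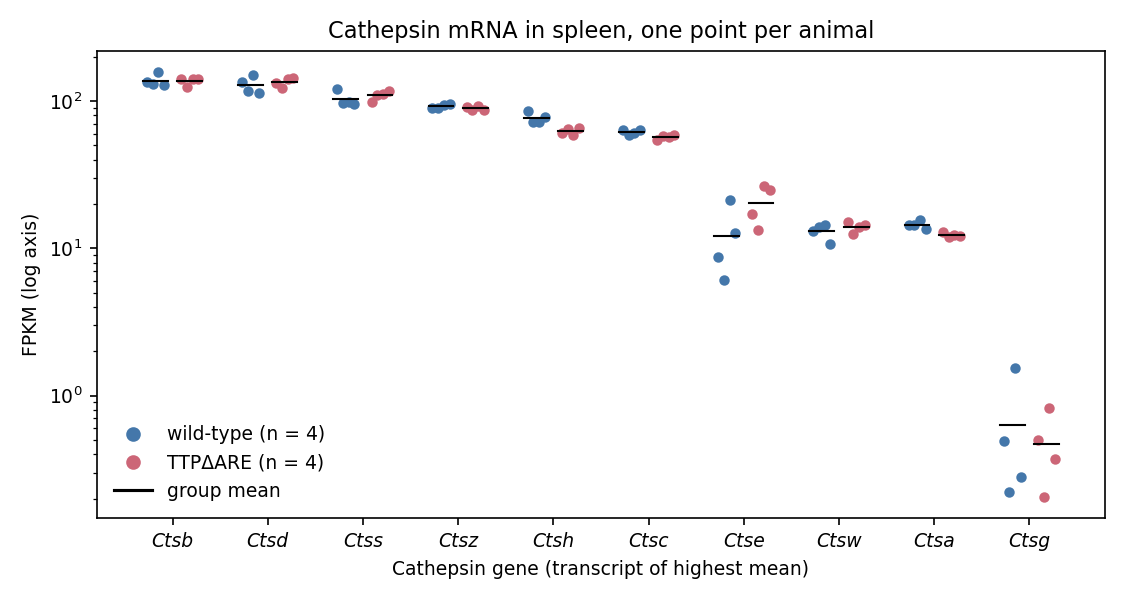
FPKM (log axis) of the main transcript of each of 10 cathepsin genes in 4 wild-type (blue) and 4 TTPΔARE (red) spleens, with 1 point per animal and a line at each group mean. Ctsb, Ctsd, Ctss, Ctsz, Ctsh and Ctsc lie above 50 FPKM, Ctse, Ctsw and Ctsa near 10 to 20, and Ctsg near or below 1, while only Ctsh and Ctsa show no overlap between genotypes.

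Together the 10 main transcripts summed to 641 ± 42.1 FPKM in wild-type and 638 ± 27.4 FPKM in TTPΔARE spleens (SD, n = 4 each), which was 0.295 to 0.343% and 0.300 to 0.308% of all FPKM. Because FPKM is per length, levels of these main transcripts can be ordered. The sum, order and shares leave out the second transcripts, so they understate the genes Ctss and Ctsa. The means of these second transcripts were 65.6 FPKM in wild-type and 71.1 FPKM in TTPΔARE for Ctss, and 11.5 and 10.1 FPKM for Ctsa. In wild-type spleen the order of main transcripts by mean was Ctsb, Ctsd, Ctss, Ctsz, Ctsh, Ctsc, Ctsa, Ctsw, Ctse and Ctsg. The ranges of Ctsb and Ctsd overlapped, as did those of Ctsd and Ctss, Ctsa and Ctsw, and Ctsw and Ctse, while Ctss, Ctsz, Ctsh and Ctsc were each separate from the next. In TTPΔARE spleen the upper 6 kept that order, followed by Ctse, Ctsw, Ctsa and Ctsg, and the ranges of Ctsh and Ctsc overlapped. Ctsb made up 21.5% of the summed level in either genotype, Ctsh 12.0 ± 1.10% in wild-type and 9.84 ± 0.71% in TTPΔARE, and Ctse 1.87 ± 0.92% and 3.17 ± 0.84% (SD, n = 4 each).

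Spread between animals differed widely among the members. In wild-type spleens the coefficient of variation was 3.49% for Ctsz and 3.83% for Ctsc, but 54.0% for Ctse and 96.8% for Ctsg. In TTPΔARE spleens it was 3.36% for Ctsz, 3.87% for Ctsc, 30.3% for Ctse and 54.8% for Ctsg. Counting error is small for the former pair, with 3621 to 4461 estimated fragments per library for Ctsz, and large for Ctsg, with 6 to 45.

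Among the macrophage lysosomal members, cathepsin B and cathepsin D, the main cysteine and aspartic proteases of lysosomal protein breakdown, did not pass the test. Ctsb stood at 135, 130.2, 158 and 128 FPKM in wild-type replicates 1 to 4 and at 142, 125, 140.4 and 140.2 FPKM in the TTPΔARE replicates. Ctsd stood at 135, 116, 151 and 114 FPKM in wild-type and at 133, 123, 142 and 144 FPKM in TTPΔARE spleens. Wild-type replicate 3 was the highest of all 8 libraries for both genes, TTPΔARE replicate 2 was the lowest of its group for both, and the groups overlapped.

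For Ctsb the log2 change was -0.003 with a 95% interval of -0.17 to 0.17, from 138 ± 13.6 to 137 ± 7.86 FPKM (SD, n = 4 each, limma adjusted p = 0.987), and 0.063 without wild-type replicate 3 (adjusted p = 0.679). For Ctsd it was 0.08 with an interval of -0.13 to 0.28 (adjusted p = 0.699), and omitting 1 spleen moved it from 0.020 (wild-type replicate 4) to 0.15 (wild-type replicate 3), never past the threshold. Of 15 red pulp macrophage markers 1 rose, Emr1, which encodes F4/80 (28.2 ± 2.07 to 36.5 ± 3.78 FPKM, SD, log2 0.36, limma adjusted p = 0.0354), and 14 of the 15 had a log2 change above 0 (median 0.15). Their summed level spanned 668 to 942 FPKM in wild-type and 850 to 964 FPKM in TTPΔARE spleens, with none at 0. The part of macrophage content in the Ctsb and Ctsd values was not tested. Emr1 did not pass on leaving out 1 of 4 spleens, with an adjusted p of 0.0687 and 0.0967 for wild-type replicates 2 and 4 and of 0.117 and 0.102 for TTPΔARE replicates 3 and 4, nor with an erythroid covariate (0.631).

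TTP acts through AU-rich elements, so the longest annotated 3′ UTR of each member (GENCODE M21) was searched for the heptamer TATTTAT on the mRNA strand. Ctsb, on chromosome 14 at 63122462 to 63145923 (GRCm38.p6), was the member with a match, 1 copy in a 3′ UTR of 3594 bases, and the other 9 held none. The shorter pentamer ATTTA, for which no background share was computed, occurred 3 times in Ctsc, 2 in Ctsb, 2 in Ctse and 1 in Ctsg. Of 11221 tested symbols with a 3′ UTR, 30.1% held at least 1 copy of the heptamer, with a median 3′ UTR of 1173 bases. Among the members only Ctsa, Ctsb and Ctsc had a 3′ UTR above that median, and the shortest was that of Ctsg, at 78 bases. The background share was not matched for length. The Ctsb site starts 2494 bases after the stop codon, at chr14:63144815-63144837 on the plus strand, and is shown with the heptamer in capitals because it is the 1 match of the family.
Ctsb: cccctttaTATTTATtcatgcag

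Lysosomal genes are often controlled through a promoter element with the core CACGTG, bound by TFEB and related factors. Promoter windows around the annotated start (RefSeq, GRCm38.p6) were at hand for 6 of the 10 members, 7 sequences in all, and the palindrome TCACGTGA was found in those of Ctsa and Ctsd, on both strands by its symmetry. It occurs in 0.974% of 32851 mouse promoters, and the core CACGTG within it in 7.15%. The stretches are shown with the octamer in capitals, since these are the members that hold it, and a match describes letters and not a bound site. They lie at chr2:164833749-164833778 and chr2:164833766-164833795, both plus strand, and at chr7:142387908-142387937, minus strand.
Ctsa first site: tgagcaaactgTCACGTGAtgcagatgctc
Ctsa second site: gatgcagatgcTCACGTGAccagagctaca
Ctsd: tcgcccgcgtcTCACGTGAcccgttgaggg

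Ctsa encodes cathepsin A, the carboxypeptidase that also protects lysosomal neuraminidase and β-galactosidase from breakdown. Its main transcript (NM_008906) was slightly lower in every TTPΔARE spleen than in any wild-type spleen. This transcript stood at 14.4, 14.5, 15.5 and 13.6 FPKM in wild-type and at 12.9, 12.0, 12.4 and 12.1 FPKM in TTPΔARE spleens. The groups did not overlap, with a gap between 12.9 and 13.6 FPKM. The log2 change of -0.23 (95% interval -0.35 to -0.10) missed the threshold (limma adjusted p = 0.0524, and 0.0369 to 0.439 over the alternatives). With median-of-ratios scaling it passed (log2 -0.23, adjusted p = 0.0408), as it did with sample weights (log2 -0.23, adjusted p = 0.0369). The second Ctsa transcript (NM_001038492) had a log2 change of -0.17 (limma adjusted p = 0.132). It stood at 10.8 to 12.3 FPKM in wild-type and 9.59 to 10.8 FPKM in TTPΔARE, and here the groups overlapped. It was 79.4 ± 4.26% of the main transcript in wild-type and 82.2 ± 3.55% in TTPΔARE spleens (SD, n = 4 each), and the split of reads between them is uncertain, since they share most of their sequence.

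**Figure D2:**
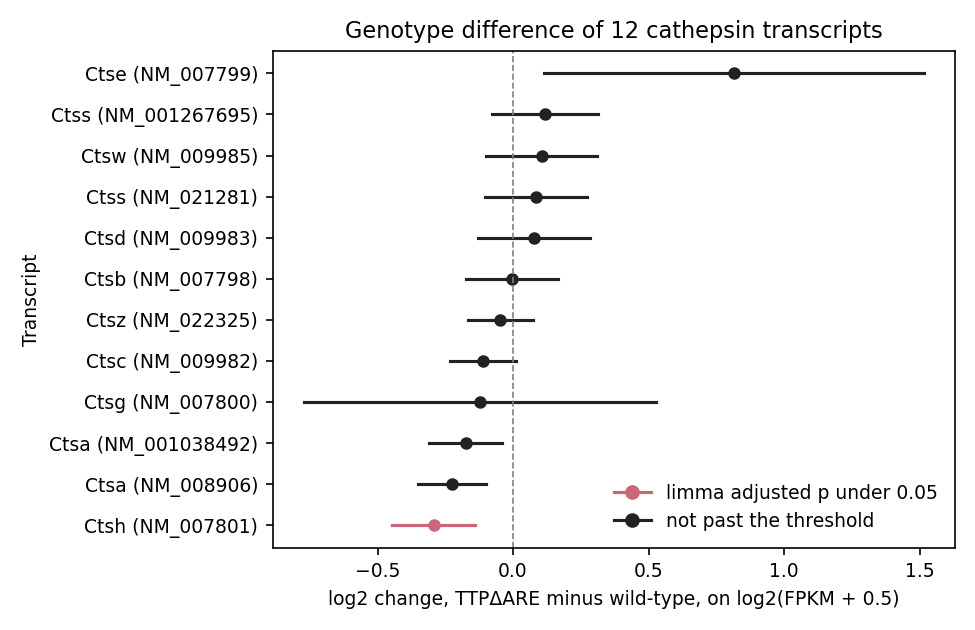
log2 change of each of the 12 cathepsin transcripts, TTPΔARE minus wild-type on log2(FPKM + 0.5), with 95% intervals from limma (n = 4 each). Ctsh, at -0.29, is the 1 transcript past the threshold, and the intervals of Ctse (0.11 to 1.52) and Ctsg (-0.77 to 0.53) are the widest.

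Of the members tied to antigen presentation, Ctsh fell and Ctss did not pass. Ctsh encodes cathepsin H, an aminopeptidase of lysosomes, and lies on chromosome 9 at 90054267 to 90076095 (GRCm38.p6). It stood at 86.0, 71.9, 72.0 and 78.2 FPKM in wild-type and at 61.1, 65.0, 59.2 and 65.4 FPKM in TTPΔARE spleens. Every TTPΔARE value was below every wild-type value. The mean went from 77.0 ± 6.69 to 62.7 ± 3.04 FPKM (SD, n = 4 each). The log2 change was -0.29, or 1.23-fold lower (SE 0.0699, 95% interval -0.45 to -0.14, limma adjusted p = 0.0439).

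That call stood close to the threshold. Leaving out wild-type replicate 1 or 4 ended it (adjusted p = 0.0609 and 0.107), and so did leaving out any 1 of the 4 TTPΔARE spleens (0.0909, 0.0553, 0.144 and 0.0857 for replicates 1 to 4). It was also lost with no filter on low values (0.0593), quantile normalization (0.0506), no variance trend (0.0591) or an erythroid covariate (log2 -0.22, 0.655). The log2 change of Ctsh was -0.32 to -0.22 over all 19 alternatives.

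Marker levels of several cell types moved beside Ctsh. Of 10 B cell markers 2 fell, Cd22 and the IgE receptor Fcer2a, and 9 of the 10 had a negative value (median -0.23). Their summed level was 999 to 1073 FPKM in wild-type and 872 to 942 FPKM in TTPΔARE. Of 10 T cell markers none passed by limma, with 6 at an unadjusted p under 0.05, 9 of the 10 negative and a median of -0.18. Of 9 plasma cell markers 1 fell, Txndc5, with its limits given under processing, and 8 of the 9 were negative (median -0.28). Of 9 monocyte markers 3 fell, the lysozyme Lyz2, the peptidase Ace and the nuclear receptor Nr4a1, while 3 of the 9 had a log2 change above 0 and the median was -0.08, and the summed level, most of it Lyz2, was 732 to 933 against 606 to 631 FPKM. The Lyz2 call ended on omitting wild-type replicate 4 (adjusted p = 0.0522) or either of TTPΔARE replicates 3 and 4 (0.0658 and 0.0570), and that of Nr4a1 on omitting either of wild-type replicates 2 and 4 (0.0510 and 0.0648) or TTPΔARE replicate 4 (0.0612). Of 10 dendritic cell markers 4 rose, Esam, Itgae, Xcr1 and Flt3, with a median of 0.35 and a summed level of 56.9 to 65.4 against 69.4 to 77.4 FPKM. Xcr1 passed on omitting wild-type replicate 1 or TTPΔARE replicate 2, and not on omitting any of the other 6 spleens (adjusted p = 0.0523 to 0.0912). Flt3 passed on omitting wild-type replicate 2 or TTPΔARE replicate 1, not for the other 6 (0.0825 to 0.127), nor with no filter (0.0616), median-of-ratios scaling (0.0538) or no variance trend (0.0595). None of these markers was at 0 in every library, and their part in the Ctsh value was not tested.

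Ctss encodes cathepsin S, which trims the invariant chain so that MHC class II can load peptide. Its main transcript (NM_021281) stood at 121, 96.4, 98.9 and 96.2 FPKM in wild-type and at 98.4, 109, 112 and 117 FPKM in TTPΔARE spleens. Wild-type replicate 1 was the highest of all 8 libraries, the other 3 wild-type values were at most 98.9, and the groups overlapped. The log2 change was 0.09 (95% interval -0.10 to 0.27, limma adjusted p = 0.631), and without wild-type replicate 1 it was 0.16 (adjusted p = 0.194). The second Ctss transcript (NM_001267695) ran at 63.6 ± 1.23% of the main one in wild-type and 65.1 ± 2.70% in TTPΔARE (SD, n = 4 each), with a log2 change of 0.12 (adjusted p = 0.498).

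The Ctss promoter, on chromosome 3, holds an interferon regulatory factor motif, a pair of GAAA separated by 2 bases, found on either strand in 3.44% of mouse promoters. It was the 1 such match among the 7 member promoters, and is shown with the motif in capitals, at chr3:95526755-95526784 on the plus strand.
Ctss: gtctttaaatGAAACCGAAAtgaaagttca

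Of 10 genes of MHC class II and the invariant chain, the non-classical chain H2-Ob fell (log2 -0.32, limma adjusted p = 0.0446) and 9 did not pass, with a median of -0.05 and a summed level of 2714 to 3104 FPKM in wild-type and 2686 to 3128 FPKM in TTPΔARE. The class II transactivator Ciita stood at 15.1 ± 1.80 and 12.0 ± 1.31 FPKM (SD, n = 4 each, log2 -0.32, limma adjusted p = 0.0874). H2-Ob no longer passed on omitting any 1 of 6 spleens (adjusted p = 0.0811 to 0.143), that is, all but wild-type replicate 3 and TTPΔARE replicate 2, nor with no filter, quantile normalization, no variance trend or the erythroid covariate.

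Ctse, the aspartic protease that red cell precursors, stomach and some immune cells make, had the largest log2 change of the family, which did not pass, and the widest spread after Ctsg. It lies on chromosome 1 at 131638314 to 131675507 (GRCm38.p6). Wild-type replicates 1 to 4 stood at 8.74, 6.11, 21.1 and 12.6 FPKM, and TTPΔARE replicates at 17.1, 13.4, 26.4 and 24.7 FPKM. Wild-type replicate 3 lay above 2 of the 4 TTPΔARE spleens, so the groups overlapped. The means were 12.2 ± 6.56 and 20.4 ± 6.17 FPKM (SD, n = 4 each), and the log2 change of 0.81 (SE 0.319, 95% interval 0.11 to 1.52) did not pass (limma adjusted p = 0.174).

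Without wild-type replicate 3 the Ctse change was 1.12 and passed (limma adjusted p = 0.0379), and without the other libraries in turn it was 0.55 to 0.99 and did not pass. With the mean of 27 erythroid markers as a covariate its direction turned, to -0.41 (adjusted p = 0.379).

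Ctse followed erythroid mRNAs from animal to animal. The 3 genes outside the family with the highest Pearson correlation to it, among 10492 genes of at least 1 FPKM over the 8 spleens, were the glycine transporter Slc6a9 (r = 0.996, Spearman's rho 0.976), the amino acid transporter Slc43a1 (r = 0.996, rho 1) and the erythroid membrane protein gene Tspo2 (r = 0.993, rho 1). These were picked as the highest of many, so the values describe likeness and are no test. Without the 2 spleens farthest from the median of Ctse, wild-type replicate 2 and TTPΔARE replicate 3, r was 0.995, 0.989 and 0.997. Tspo2 stood at 0.869, 0.580, 3.73 and 1.48 FPKM in wild-type and at 2.69, 1.71, 4.47 and 4.46 FPKM in TTPΔARE spleens, with the same animals high and low as for Ctse. None of the 3 passed with all 8 spleens (limma adjusted p = 0.165, 0.126 and 0.183 in the order above), and each passed without wild-type replicate 3 (0.0425, 0.0267 and 0.0294). Because they were picked for likeness to Ctse in these spleens, these outcomes are not separate from that of Ctse.

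The globin mRNAs and Alas2 did not share that order within the wild-type group, whereas Fech was highest in wild-type replicate 3. Alas2, which encodes the enzyme that starts heme synthesis in red cell precursors, stood at 26.5, 33.0, 20.2 and 19.2 FPKM in wild-type and at 43.8, 44.7, 67.1 and 66.4 FPKM in TTPΔARE. The β-globin gene Beta-s stood at 3323, 3623, 2065 and 1957 FPKM in wild-type and at 4846, 4888, 6943 and 7162 FPKM in TTPΔARE. Wild-type replicates 1 and 2 were thus high for globin and Alas2 and low for Ctse and Tspo2, and replicates 3 and 4 the reverse, while TTPΔARE replicates 3 and 4 were highest for all 4 genes. Wild-type replicate 3 was the highest of its group for 21 of the 27 erythroid markers, and the 6 exceptions were Alas2, Bpgm and the 4 globin genes. All 27 had a log2 change above 0 (median 1.20) and 7 rose, those 6 and Fech. On omitting wild-type replicate 4 or TTPΔARE replicate 3 the calls of Bpgm and all 4 globin genes were lost (adjusted p = 0.0530 to 0.0734), and on omitting TTPΔARE replicate 4 those of Bpgm, Beta-s and Hbb-b1 (0.0653, 0.0569 and 0.0508). Quantile normalization lowered Beta-s from 1.15 to 0.14, Hba-a1 from 1.20 to 0.13 and Hba-a2 from 1.21 to 0.29, none of which then passed (0.330, 0.221 and 0.0851), and Hbb-b1 from 1.16 to 0.72, which did. Beta-s also did not pass with no filter (0.0629), nor Bpgm with robust variance (0.0602). Their mean on the log2 scale was 2.96, 2.88, 4.34 and 3.66 in wild-type and 4.48, 4.09, 5.02 and 5.05 in TTPΔARE spleens, and none was at 0 in every library. The Ctse value with their mean as a covariate is the one given above.

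**Figure D3:**
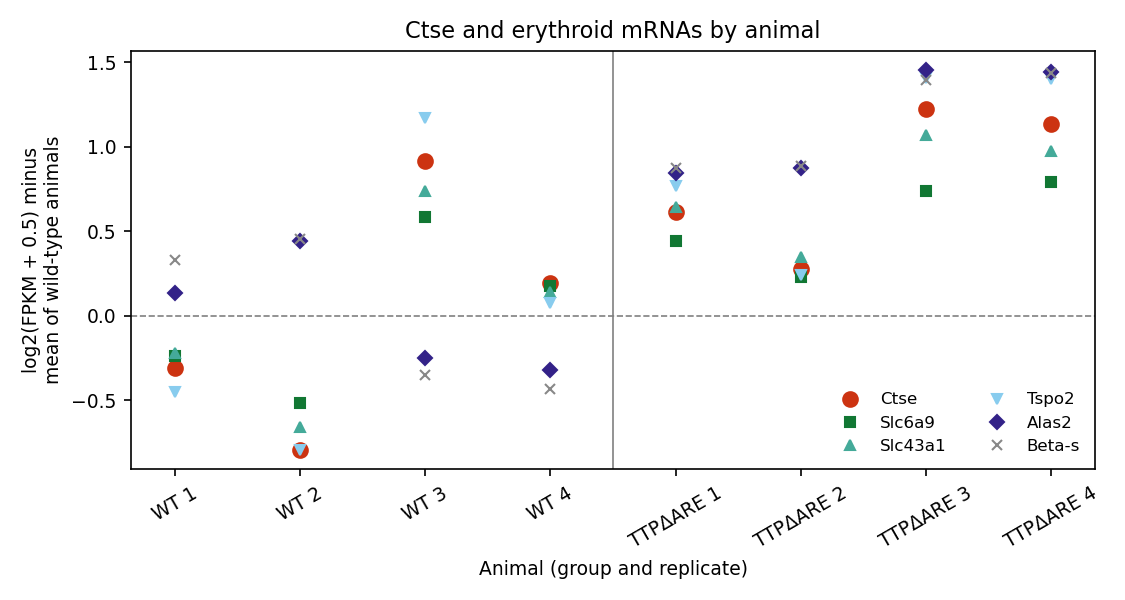
log2(FPKM + 0.5) of Ctse, its 3 most alike genes (Slc6a9, Slc43a1, Tspo2), Alas2 and Beta-s in each of 8 spleens, as the difference from the wild-type mean of the gene. In wild-type replicates 1 and 2 Ctse lies at -0.31 and -0.80 with Alas2 at 0.13 and 0.44, in replicate 3 at 0.91 with Alas2 at -0.25, and all 6 genes lie above 0 in the 4 TTPΔARE spleens.

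The cytotoxic member, Ctsw, encodes cathepsin W, a cysteine protease of NK cells and CD8 T cells, and did not pass. It stood at 13.03, 14.1, 14.3 and 10.7 FPKM in wild-type and at 15.1, 12.4, 14.0 and 14.4 FPKM in TTPΔARE spleens. Wild-type replicate 4 was the lowest of the 8, and the groups overlapped. The log2 change was 0.11 (95% interval -0.10 to 0.31, limma adjusted p = 0.572), and 0.017 without wild-type replicate 4 (adjusted p = 0.934).

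Of 14 NK and cytotoxic T cell markers none passed by limma, with 2 at an unadjusted p under 0.05 and a median of 0.19, and their summed level was 99.6 to 151 FPKM in wild-type and 129 to 194 FPKM in TTPΔARE. The NK receptor gene Ncr1 was lowest in wild-type replicate 4, at 4.76 FPKM, as Ctsw was. The granzyme Gzma reached 44.03 FPKM in TTPΔARE replicate 4 against 19.0 to 22.1 in the rest of that group, and the perforin gene Prf1 9.20 against 5.25 to 6.70, while Ctsw was at 14.4 there, inside its group range. The 3 genes most like Ctsw over the 8 spleens were Brf2, Efcab4a and Ecsit (r = 0.974, 0.961 and 0.960, rho 0.833, 0.976 and 0.690), none of them on the cytotoxic list, and r fell to 0.846, 0.924 and 0.681 without the 2 farthest spleens.

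Ctsg, the granulocyte member, encodes cathepsin G, a serine protease of azurophil granules that is transcribed in granulocyte precursors, and was the least abundant. It stood at 0.492, 0.222, 1.53 and 0.279 FPKM in wild-type and at 0.496, 0.206, 0.818 and 0.371 FPKM in TTPΔARE spleens. These values match about 14, 7, 45 and 9 fragments in wild-type and 16, 6, 26 and 12 in TTPΔARE libraries. Replicate 3 of each group was the highest of its group, and the groups overlapped.

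For wild-type replicate 3 the 95% Poisson interval of those fragments was 32.8 to 60.2, and for wild-type replicate 1 it was 7.65 to 23.5, counting error only, so the gap between these animals was larger than counting error. The log2 change between genotypes was -0.12 (95% interval -0.77 to 0.53, limma adjusted p = 0.862), and a change of that size was not detectable here. Without wild-type replicate 3 the mean of Ctsg was under 0.5 FPKM and it was not tested.

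Other azurophil granule mRNAs had the same animals high. Elane, neutrophil elastase, stood at 0.42, 0.35, 2.23 and 0.27 FPKM in wild-type and at 0.73, 0.52, 1.54 and 0.71 FPKM in TTPΔARE. Mpo, myeloperoxidase, stood at 0.71, 0.65, 4.15 and 0.52 FPKM, and at 1.85, 0.83, 3.15 and 1.35 FPKM. For Prtn3, proteinase 3, the values were 0.43, 0.29, 1.25 and 0.25 FPKM, and 0.70, 0.39, 1.41 and 0.47 FPKM. In these genes too replicate 3 of each group was highest. Without wild-type replicate 3 the log2 change went from 0.23 to 0.65 for Elane, from 0.42 to 0.93 for Mpo and from 0.26 to 0.53 for Prtn3, and none passed either way.

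Summed over 8 granulocyte precursor genes, Ctsg included, the level was 2.71 to 12.8 FPKM in wild-type and 3.85 to 10.04 FPKM in TTPΔARE, none passed of the 6 tested by limma (1 at an unadjusted p under 0.05), and the median was 0.24. Of 12 later neutrophil genes tested 2 rose, Retnlg and Mmp8. The Retnlg call was lost on omitting TTPΔARE replicate 3 or 4 (adjusted p = 0.0624 and 0.0523), and that of Mmp8 on omitting wild-type replicate 4 or TTPΔARE replicate 3 (0.0577 and 0.0631). The genes most like Ctsg were Wdr55, the granule peptide gene Camp and Dusp1 (r = 0.974, 0.970 and 0.959, rho 0.952 for each), with r of 0.821, 0.890 and 0.764 without the 2 farthest spleens. Camp stood at 9.64 FPKM in wild-type replicate 3 against 1.22 to 2.65 in the rest of its group.

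**Figure D4:**
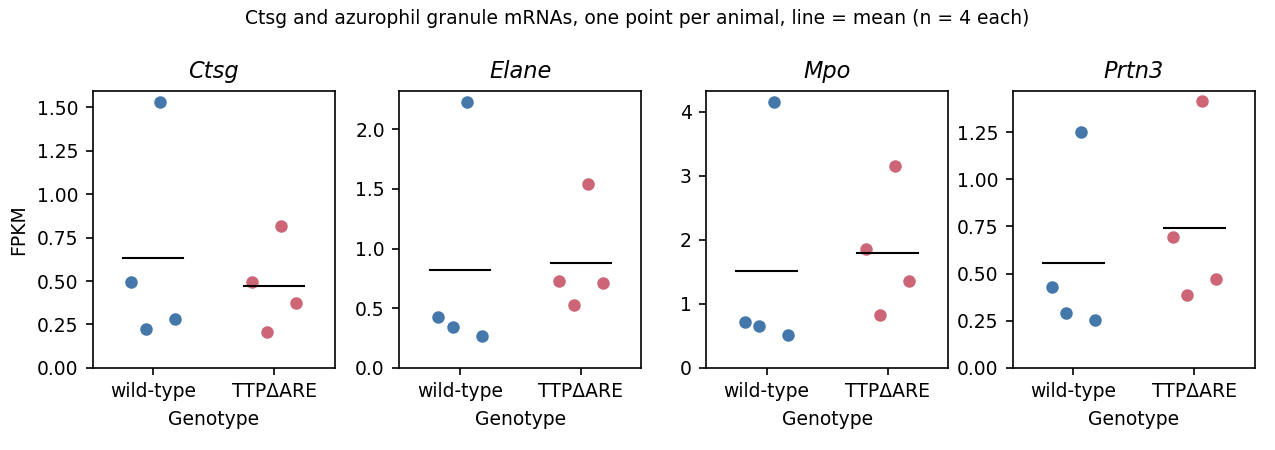
FPKM of Ctsg and the azurophil granule genes Elane, Mpo and Prtn3 in 4 wild-type (blue) and 4 TTPΔARE (red) spleens, 1 point per animal with a line at the group mean. In each panel replicate 3 is the highest point of its group, at 1.53 and 0.818 FPKM for Ctsg.

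Ctsc and Ctsz were the least variable members in wild-type spleen, and neither passed the test. Ctsc encodes dipeptidyl peptidase I, which activates the serine proteases of cytotoxic and granulocyte granules, and stood at 64.1, 59.1, 60.5 and 63.4 FPKM in wild-type and at 54.1, 58.2, 57.3 and 59.2 FPKM in TTPΔARE spleens. The highest TTPΔARE value exceeded the lowest wild-type value by a narrow margin. Its log2 change of -0.11 (95% interval -0.23 to 0.01) did not pass (limma adjusted p = 0.279).

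Of 10 tested genes on a list of granule proteases and related granule genes, Ctsg and Mpo among them, none passed (limma, 0 at an unadjusted p under 0.05). Their median log2 change was 0.22, with 8 of the 10 above 0. The list is not restricted to proteases that cathepsin C activates, since Mpo encodes a peroxidase. Ctsz encodes the carboxypeptidase cathepsin Z and stood at 89.5, 89.7, 93.5 and 96.1 FPKM in wild-type and at 91.1, 86.6, 92.4 and 86.7 FPKM in TTPΔARE spleens. Its log2 change was -0.05 (95% interval -0.17 to 0.07, limma adjusted p = 0.674).

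Outside the 10 members, a pair of serpins passed among the cathepsins' relatives, inhibitors and lysosomal partners. Of 8 other cathepsins and lysosomal peptidases none passed by limma (1 at an unadjusted p under 0.05, median -0.08). Ctsf went from 2.18 ± 0.189 to 2.66 ± 0.254 FPKM (SD, n = 4 each, log2 0.24, limma adjusted p = 0.126). Ctsl, the major lysosomal endopeptidase beside cathepsin B, stood at 18.8 ± 1.90 and 17.9 ± 1.65 FPKM, Ctso at 16.8 ± 1.49 and 15.01 ± 1.78 FPKM, and Ctsk, the osteoclast collagenase, at 1.66 ± 0.115 and 1.53 ± 0.349 FPKM. Legumain, Lgmn, which processes several cathepsins, stood at 74.7 ± 6.71 and 67.9 ± 3.31 FPKM.

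Among inhibitors, Serpina3g rose and the cystatins did not pass. Serpina3g, a serpin that can block lysosomal cysteine cathepsins, stood at 47.7, 34.7, 34.5 and 34.6 FPKM in wild-type and at 54.3, 49.6, 50.1 and 51.4 FPKM in TTPΔARE spleens. All 4 TTPΔARE values lay above the highest wild-type value, which was that of replicate 1. The log2 change was 0.45 (SE 0.0982, limma adjusted p = 0.0326). For Serpina3f, a close relative, the mean was 1.55 ± 0.458 FPKM in wild-type and 2.45 ± 0.162 FPKM in TTPΔARE (SD, n = 4 each), a rise of 0.55 on the log2 scale (limma adjusted p = 0.0453). These serpins belong to a cluster of near-identical copies, so the split of reads between them is uncertain.

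These 2 were the risers among 11 serpins and other inhibitors tested, with 9 not passing and a median of 0.20. Serpinb6a had a log2 change of 0.28 (limma adjusted p = 0.0774), and passed with sample weights (adjusted p = 0.0367) and without wild-type replicate 1 (log2 0.34, adjusted p = 0.0463). Serpina3g no longer passed when any 1 of wild-type replicates 2 to 4 or of TTPΔARE replicates 1, 3 and 4 was omitted (adjusted p = 0.0624 to 0.0950), or with the erythroid covariate (0.285). That of Serpina3f was lost on omitting any 1 of 7 of the 8 spleens, all but wild-type replicate 1, and with no filter, quantile normalization, no variance trend, 1 transcript per symbol or the erythroid covariate. Cst3, cystatin C, the secreted inhibitor of cysteine cathepsins, stood at 172 ± 37.6 and 215 ± 27.9 FPKM (SD, n = 4 each, log2 0.34, limma adjusted p = 0.206). Stefin B, Cstb, stood at 18.2 ± 2.18 and 16.2 ± 0.531 FPKM (log2 -0.16, adjusted p = 0.270). Of 6 cystatins and stefins none passed (limma, 1 at an unadjusted p under 0.05, median -0.13).

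Other lysosomal lists held no call with the settings used here. By limma none passed of 30 lysosomal hydrolases (3 at an unadjusted p under 0.05, median 0.01), 15 lysosomal membrane genes (3, median 0.02), 17 subunits of the proton pump that acidifies the lysosome (4, median 0.06), 13 sorting genes (4, median 0.01) and 5 transcription factors of lysosomal genes (1, median -0.06). The smallest adjusted p of each kind belonged to Sgsh (log2 -0.25, 0.0691), Atp6v1g1 (0.30, 0.0631) and Sort1 (0.33, 0.0666) for the hydrolases, pump and sorting genes. Sort1 passed without wild-type replicate 3 (log2 0.40, adjusted p = 0.0292). Atp6v1g1 passed with quantile normalization (adjusted p = 0.0386), with sample weights (0.0290) and without wild-type replicate 1 (log2 0.36, 0.0342). Tfeb, the factor best known for binding the CACGTG element, stood at 5.73 ± 0.489 and 5.11 ± 0.479 FPKM (SD, n = 4 each, log2 -0.15, limma adjusted p = 0.299). Cd68, a lysosomal membrane protein of macrophages, had a log2 change of 0.26 (adjusted p = 0.182).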

How the data were processed

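RNA was taken from whole spleens, 8 libraries in all. The deposited values are FPKM, given by the authors per RefSeq transcript and sample. The submitters' processing notes name BWA as a tool and mm10 as the build, and the sources used here state no counting tool, annotation, strand setting or filter. Because FPKM are not counts, log2(FPKM + 0.5) was tested with limma 3.58.1 (R 4.3.3, variance trend, two-sided), after a filter that kept 16608 transcripts averaging 0.5 FPKM or more. Benjamini-Hochberg adjustment ran over all of them, with a threshold of 0.05. Depth was estimated from values up to 0.5 FPKM and GENCODE M21 lengths. At the best depth 39.9 to 43.6% of these were whole fragments within 0.05, against 8.62 to 8.85% at the median of the depths tried. Since most were not whole, no count test was run, and fragment numbers are estimates. In a simulation of the TTPΔARE and wild-type groups over 16608 transcripts, 50 were changed by each fold. The share recovered was 46% for 1.3-fold, 94% for 1.5-fold and 100.0% for both 2-fold and 3-fold, and 16 of 186 calls were false. Noise was drawn independently for each transcript, without variation shared between transcripts of an animal. These shares do not carry over to transcripts of wide spread, such as Ctse (SE 0.319) and Ctsg (SE 0.296).

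Members and lists were chosen with earlier results of these data known. The rule for named genes took the members, the 3 genes of smallest p and the 1 of highest mean in each list, the 3 genes most like Ctse, Ctsw and Ctsg, and Zfp36, and only some of these are named. Ctsl, Ctso, Ctsk, Elane, Prtn3, Flt3, Bpgm, Hba-a1 and Hbb-b1 fall outside it and were chosen after their values were seen. There were 10 lists of pathway genes and 11 of cell markers, with 1 transcript per symbol. Not described in full in the results were 10 T cell markers (0 calls, 6 at an unadjusted p under 0.05, limma) and 9 plasma cell markers (Txndc5 lower, not on omitting wild-type replicate 4 or TTPΔARE replicate 1, 3 or 4). Nor were 5 mast cell and basophil markers (Kit higher, not on omitting replicate 1 or 4 of wild-type or 3 or 4 of TTPΔARE). Alternatives were other pseudocounts, filters, scalings and variance models, sample weights, an erythroid covariate, 1 transcript per symbol and leaving out each spleen. Python 3.11.15, numpy 2.4.6, pandas 2.3.3, scipy 1.17.1 and matplotlib 3.10.9 were used.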

Additional observations from a re-analysis of the deposited data

Results flagged for a closer look

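Within a group of 4, a value was listed when its gap to the nearest other, as a share of the group's range, exceeded Dixon's 95% critical value, which chance does in about 1 in 20 groups. It did so in 15 of 122 groups examined, 2 of them among the 24 groups of cathepsin transcripts. Ctsb stood at 125 FPKM in TTPΔARE replicate 2, below 140.2 to 142 in the rest of its group. Ctss (NM_021281) stood at 121 FPKM in wild-type replicate 1, above 96.2 to 98.9. In wild-type replicate 1 Serpina3g was also high, at 47.7 FPKM, and Cstb, at 21.5 FPKM. In wild-type replicate 3 Mpo stood at 4.15, Elane at 2.23 and Camp at 9.64 FPKM, all high, as was Fech, at 17.4 FPKM. In wild-type replicate 4 Ciita was high, at 17.8 FPKM, and Ncr1 low, at 4.76 FPKM. Gzma was high in TTPΔARE replicate 4, at 44.03 FPKM. Serpina3f was low in TTPΔARE replicate 2, at 2.20 FPKM, and Ctsf in TTPΔARE replicate 1, at 2.28 FPKM. The dendritic cell marker Esam was low in wild-type replicate 4, at 5.34 FPKM, and Flt3 high in wild-type replicate 2, at 10.9 FPKM.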

How the results depend on the processing

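The count of cathepsin transcripts past the threshold, 1 as reported, was 0 with no filter on low values, quantile normalization, no variance trend or the erythroid covariate (4, 5, 4 and 3 at an unadjusted p under 0.05, limma), 2 with median-of-ratios scaling or sample weights, and 0 to 2 with 1 spleen left out. The 3 with the erythroid covariate were Ctse, there negative, Ctsg and the main Ctsa transcript, and not Ctsh. In that fit the log2 change of Ctsg went from -0.12 to -0.99 (limma adjusted p = 0.410). Over all transcripts, 333 higher and 331 lower became 0 and 0 with the erythroid covariate (limma, 1376 at an unadjusted p under 0.05), 239 and 215 with 1 transcript per symbol, and 93 to 437 higher and 104 to 332 lower with 1 spleen left out. Among alternatives of single cathepsin transcripts 205 kept direction and side of the threshold. Directions turned for Ctsb (log2 0.051 with quantile normalization, and 0.063 on omitting wild-type replicate 3 and 0.039 on omitting TTPΔARE replicate 2 in a range of -0.036 to 0.063 with 1 spleen left out) and Ctsg (0.019 without TTPΔARE replicate 2, in a range of -0.29 to 0.019). With the erythroid covariate they turned for Ctsd (-0.13), Ctse (-0.41), Tspo2 (-0.53), Slc6a9 (-0.24), Slc43a1 (-0.20), Mpo (-0.92), Elane (-0.83), Prtn3 (-0.48), Gzma (-0.089), Ctsl (0.14) and Camp (-1.40). Tspo2 is itself among the 27 markers averaged into that covariate. Slc6a9, Slc43a1 and Tspo2 were picked for their likeness to Ctse, so their turns are not separate from that of Ctse. With 1 spleen left out Gzma ranged from -0.068 (TTPΔARE replicate 4 omitted; -0.026 for wild-type replicate 4) to 0.33, and Camp from -0.21 (wild-type replicate 2 omitted; -0.023 for wild-type replicate 4, -0.16 for TTPΔARE replicate 3) to 0.65. The cause of these shifts between settings was not tested. No paired analysis was possible because the labels give no replicate numbers that pair animals across genotypes. Depth limits Ctsg, with 6 to 45 fragments per library.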
